A study of Hordeum vulgare with 24 samples.

Results

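HvMADS3 (HORVU3Hr1G026650), HvMADS58 (HORVU1Hr1G029220), HvMADS16 (HORVU7Hr1G091210) and HvMADS32 (HORVU3Hr1G068900) are 4 floral organ genes of barley, taken by identifier from the gene tables, where they are 4 of 39734 identifiers. All 4 had enough reads to be tested, as did 18394 identifiers in all. The names come from knowledge of the barley MADS-box family. They are neither paired with the identifiers in the files nor checked by sequence, and the reference table of the barley genome held none of the identifiers.

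MADS-box transcription factors act in combinations that give each whorl of a flower its organs. Genes of the AGAMOUS group, to which HvMADS3 and HvMADS58 belong, are known in flowering plants for stamen and carpel identity and for ending the activity of the floral meristem. HvMADS16 is of the APETALA3 group, whose rice member is needed for lodicules, the grass counterpart of petals, and for stamens. HvMADS32 belongs to a group known from monocots, and its rice counterpart acts in floral organ identity in several whorls. In a young grass spike genes of the AGAMOUS and APETALA3 groups come on as florets begin to form their inner organs.

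The libraries were made from inflorescences, that is, young spikes, of the cultivar Golden Promise. Wild-type plants (WT) and plants labelled as HvMADS1 mutant (mads1) were kept at day and night temperatures of 15 and 10 °C (LT) or 25 and 20 °C (HT), with a 16 h photoperiod. Spikes were collected at stage W2.5 and at stage W3.5 of the Waddington scale of spike development. Each of the 8 groups held 3 libraries, each from RNA of 15 to 20 pooled spikes, which the labels call biological replicates. The kind of mutation, and whether 1 or several mutant lines were used, are not stated in the labels.

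Library totals ran from 13283533 to 19864259 reads, so that 3 reads of a gene stood at 0.140 to 0.344 CPM, the unit of counts scaled to a common library total with TMM factors. WT_HT_W2.5 replicate 3 stood apart. Its TMM scaling factor was 0.575, and those of the other 23 libraries were 0.959 to 1.08. Over the tested genes its closest library had a Spearman correlation of 0.818 with it, and no 2 of the other 23 libraries had one under 0.922. Tests are therefore given both with and without it. HvMADS1 itself, the mutated gene and a SEPALLATA-group regulator, averaged 40.7, 8.65, 59.1 and 61.8 CPM in the LT W2.5, HT W2.5, LT W3.5 and HT W3.5 groups of WT, and 17.5, 10.4, 46.0 and 4.55 CPM in those of mads1. Because the kind of mutation is not given, these read levels are no test of the labels. In the mads1 HT W3.5 group HvMADS1 stood at 0, 0.330 and 13.3 CPM in replicates 1, 2 and 3.

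All 4 genes were higher at W3.5 than at W2.5 in each genotype at each temperature, and in none of these 16 comparisons did the libraries of the 2 stages overlap. Across the whole series the stages did not overlap either. The lowest of the 12 W3.5 libraries stood above the highest of the 12 W2.5 libraries for HvMADS3 (2.97 against 2.58 CPM), HvMADS58 (2.28 against 2.07), HvMADS16 (8.28 against 4.56) and HvMADS32 (139 against 124). The share of all genes without overlap was not counted, for the stages or for the comparisons below. With all 24 libraries 14 of the 16 differences passed the test, and without WT_HT_W2.5 replicate 3 all 16 did. The comparison asks how far these genes had come on between the stages. In bulk spikes, more cells that express a gene and more RNA per cell cannot be told apart.

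Of all genes tested, 0.429% were called higher at W3.5 in WT at LT, 5.59% in WT at HT, 1.15% in LT-grown mads1 and 4.68% in mads1 at HT, against 3, 4, 4 and 3 of these 4. In the fit without WT_HT_W2.5 replicate 3 the shares were 2.14%, 5.01%, 4.19% and 14.8%, against 4 of 4 in each. The median log2 fold change of the 4 genes was 2.77, 4.07, 4.30 and 2.54 in these settings, and that of all genes was between -0.03 and 0.02. Of 9 other genes of a floral MADS-box list, 3, 6, 5 and 7 were called higher and none lower in the same order. In a fit to the WT HT libraries alone none of the 4 differences passed, with WT_HT_W2.5 replicate 3 among the 6 libraries (edgeR adjusted p = 0.0776 to 0.436).

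HvMADS3 came on from close to no reads. At W2.5 it had 3 reads or fewer in 7 of 12 libraries. Its levels in replicates 1, 2 and 3 were 0.475, 2.58 and 0.0509 CPM in WT at LT, 0.0579, 0 and 0.344 in WT at HT, 0.0609, 0.0569 and 0.178 in LT-grown mads1, and 0.303, 0.401 and 0.254 in mads1 at HT. Only WT_LT_W2.5 replicate 2, with 38 reads, was above 1 CPM. At W3.5 the levels were 8.11, 8.05 and 6.41 CPM in WT at LT, 8.93, 9.47 and 8.64 in WT at HT, 7.64, 11.7 and 11.4 in LT-grown mads1, and 5.07, 4.51 and 2.97 in mads1 at HT. HvMADS3 rose in all 4 settings, by a log2 fold change of 2.94 (edgeR, SE 0.62, adjusted p = 0.0265) in WT at LT, 6.34 (SE 0.86, adjusted p = 0.000144) in WT at HT, 6.60 (SE 0.83, adjusted p = 0.000134) in LT-grown mads1 and 3.68 (SE 0.71, adjusted p = 0.00257) in mads1 at HT. The sizes of the middle pair rest on 4 and 5 reads in the whole W2.5 group, so that they depend on the small count that edgeR adds before taking logs. The call in WT at LT was lost without WT_LT_W2.5 replicate 1 (edgeR adjusted p = 0.193) or 3 (0.0930) and without any 1 of the WT LT W3.5 libraries (0.0787 to 0.104). Without WT_LT_W2.5 replicate 2, the one library above 1 CPM, the rise was larger, at 4.77 (edgeR, SE 0.57, adjusted p = 0.000306). In WT at HT the rise was 7.85 (edgeR, SE 1.00, adjusted p = 2.72e-05) without WT_HT_W2.5 replicate 3, and then rests on 1 read at W2.5.

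HvMADS58, the other AGAMOUS-group gene, had reads in every library. At W2.5 it stood at 0.570, 1.43 and 0.305 CPM in WT at LT, 0.290, 0.367 and 2.07 in WT at HT, 0.487, 0.455 and 0.357 in LT-grown mads1, and 0.667, 1.60 and 0.890 in mads1 at HT. The value of 2.07 is that of WT_HT_W2.5 replicate 3, the library that stood apart, and comes from 18 reads. At W3.5 it stood at 5.03, 4.25 and 4.16 CPM in WT at LT, 6.67, 6.25 and 4.98 in WT at HT, 6.54, 7.69 and 10.5 in LT-grown mads1, and 3.88, 2.86 and 2.28 in mads1 at HT. It rose by a log2 fold change of 2.59 (edgeR, SE 0.52, adjusted p = 0.0214) in WT at LT, 2.89 (SE 0.55, adjusted p = 0.00271) in WT at HT and 4.23 (SE 0.56, adjusted p = 0.000259) in LT-grown mads1. In mads1 at HT the log2 fold change of 1.5 (edgeR, SE 0.51, adjusted p = 0.0830) did not pass, but passed at 1.49 (SE 0.35, adjusted p = 0.00308) without WT_HT_W2.5 replicate 3. Leaving that library out moved the rise in WT at HT to 4.19. The call in WT at LT was lost without the same single libraries as for HvMADS3 (edgeR adjusted p = 0.0629 to 0.190). Without WT_LT_W2.5 replicate 2 the rise there was 3.33 (edgeR, SE 0.58, adjusted p = 0.00892).

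HvMADS16, the APETALA3-group gene, stood at 1.47, 4.56 and 1.32 CPM in WT at LT W2.5, with replicate 2 far above the other pair. The other W2.5 levels were 0.985, 0.513 and 0.344 CPM in WT at HT, 1.04, 1.25 and 0.951 in LT-grown mads1, and 1.27, 0.858 and 1.21 in mads1 at HT. At W3.5 it reached 24, 25.1 and 22.8 CPM in WT at LT, 24.3, 22.8 and 28.9 in WT at HT, 17.6, 23.6 and 26.4 in LT-grown mads1, and 16.8, 14.7 and 8.28 in mads1 at HT. Its rise passed in all 4 settings, with a log2 fold change of 3.32 (edgeR, SE 0.38, adjusted p = 9.42e-05) in WT at LT, 5.25 (SE 0.44, adjusted p = 1.58e-06) in WT at HT, 4.37 (SE 0.41, adjusted p = 1.07e-05) in LT-grown mads1 and 3.57 (SE 0.40, adjusted p = 1.46e-05) in mads1 at HT. In WT at LT it was 4.09 (edgeR, SE 0.34, adjusted p = 4.67e-06) when replicate 2 of W2.5 was left out.

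HvMADS32 was already well expressed at W2.5 and changed least in fold between the stages. It stood at 98.9, 124 and 98.4 CPM in WT at LT, 43.5, 47.4 and 80.0 in WT at HT, 84.5, 91.9 and 78.0 in LT-grown mads1, and 68.2, 69.2 and 49.1 in mads1 at HT. At W3.5 the levels were 149, 148 and 157 CPM in WT at LT, 145, 147 and 161 in WT at HT, 170, 182 and 204 in LT-grown mads1, and 139, 144 and 148 in mads1 at HT. In WT at LT the log2 fold change of 0.50 (edgeR, SE 0.18, adjusted p = 0.424) did not pass, but passed without WT_HT_W2.5 replicate 3 (0.53, SE 0.10, adjusted p = 0.00470). It rose by 1.41 (edgeR, SE 0.18, adjusted p = 9.15e-05) in WT at HT, 1.13 (SE 0.18, adjusted p = 0.00150) in LT-grown mads1 and 1.21 (SE 0.18, adjusted p = 0.000297) in mads1 at HT.

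**Figure D1:**
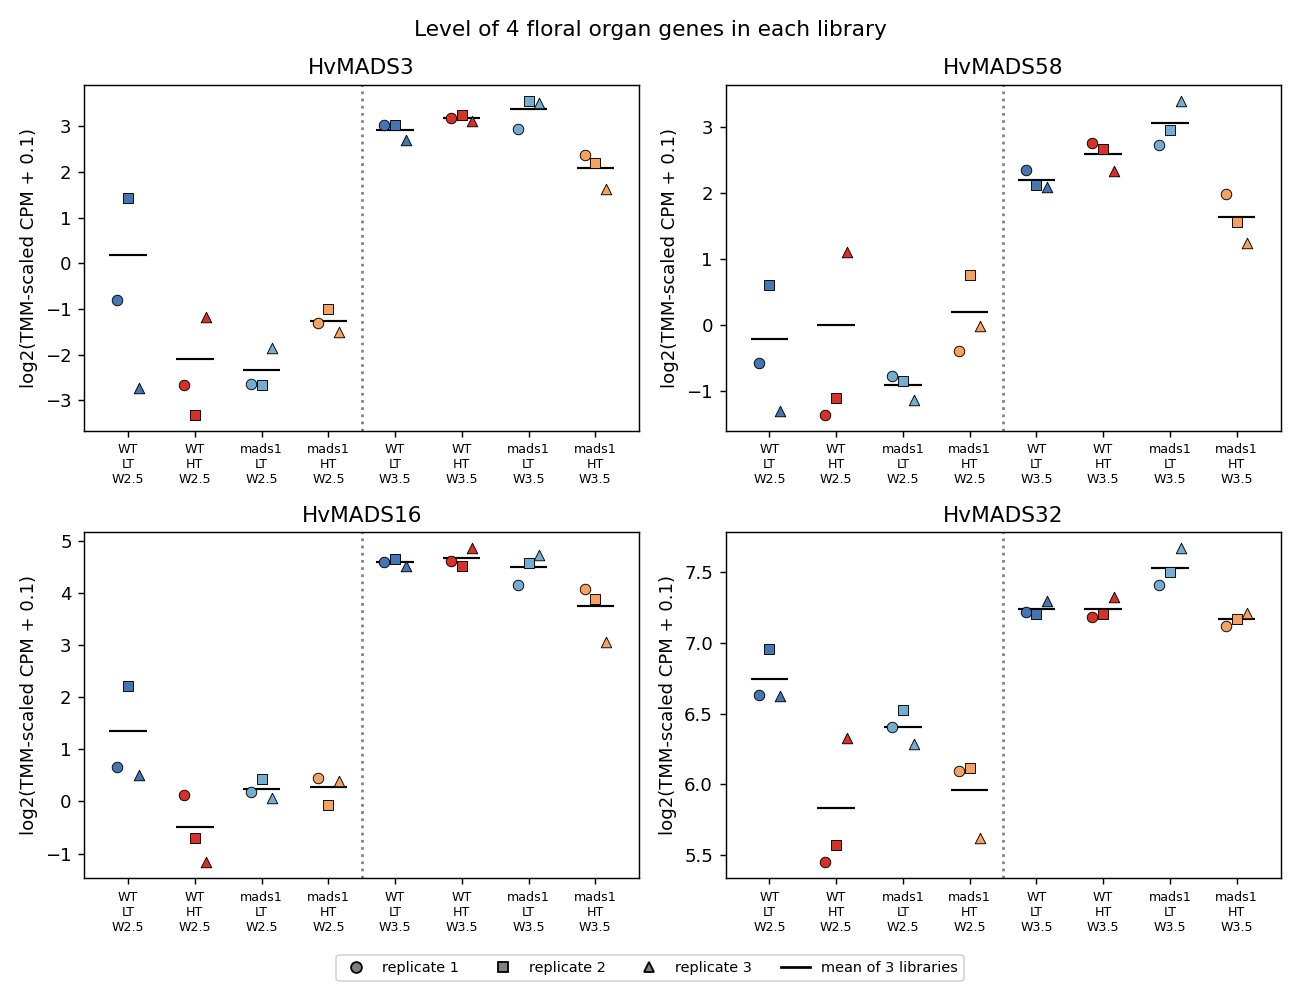
Level of each gene in each of the 24 libraries as log2 of TMM-scaled CPM plus 0.1, by group, with replicates as shapes and the mean of 3 libraries as a bar; W2.5 is left and W3.5 right of the dotted line. Every W3.5 point lies above every W2.5 point of the same gene, the W2.5 points of HvMADS3 in WT at LT span 0.0509 to 2.58 CPM, and in mads1 HT W3.5 replicate 3 is lowest for 3 of the 4 genes.

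Levels can be ranked between genes only per length, as FPKM, the deposited unit of reads per kilobase of gene and per total of reads in the library. In 12 of 12 W3.5 libraries the order was HvMADS32, HvMADS16, HvMADS3, HvMADS58, from highest to lowest. At W2.5 the AGAMOUS-group genes stood the other way round in most libraries. HvMADS32, HvMADS16, HvMADS58, HvMADS3 was the order in 9 of 12, WT_LT_W2.5 replicate 2 had the W3.5 order, and in WT_HT_W2.5 replicate 3 and mads1_HT_W2.5 replicate 2 HvMADS58 was above HvMADS16. The ratio of HvMADS3 to HvMADS58 FPKM was 1.19 to 2.08 over the W3.5 libraries. Its 95% counting interval included 1 in mads1_LT_W3.5 replicate 1 (0.997 to 1.65) and replicate 3 (0.959 to 1.48), and in mads1_HT_W3.5 replicate 3 (0.888 to 2.33). At W2.5 the ratio was 1.99 (95% counting interval 1.14 to 3.56) in WT_LT_W2.5 replicate 2 and 0 to 0.915 in the other 11. Of those 11 intervals, those of WT_HT_W2.5 replicate 3 (0.0345 to 0.627), mads1_HT_W2.5 replicate 2 (0.101 to 0.643) and mads1_HT_W2.5 replicate 3 (0.0752 to 0.999) lay below 1. At this depth the other 8 do not separate the 2 genes. HvMADS32 exceeded HvMADS16 by 5.90 to 19.0 times in FPKM at W3.5 and by 29.0 to 247 times at W2.5. The 247 is from WT_HT_W2.5 replicate 3, the library that stood apart, where HvMADS16 had 3 reads. Outside the WT HT group the W2.5 ratio was at most 87.3.

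**Figure D2:**
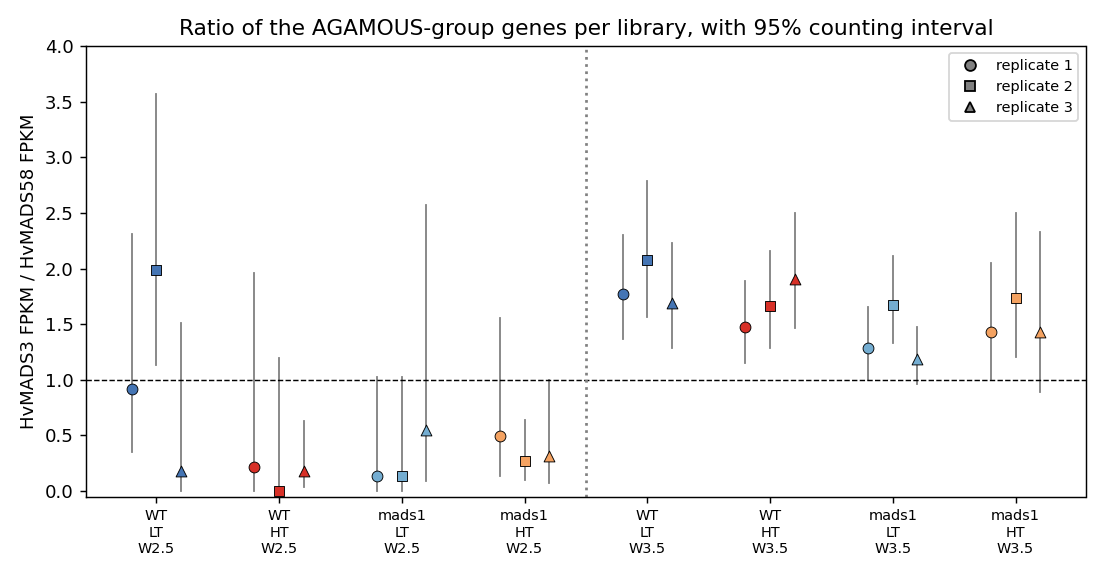
HvMADS3 FPKM divided by HvMADS58 FPKM in each library, with 95% intervals that cover counting error only, by group; the dashed line marks equal levels per length. All 12 W3.5 libraries lie above the line (1.19 to 2.08), and at W2.5 WT_LT_W2.5 replicate 2 alone does (1.99). The intervals of mads1_LT_W3.5 replicates 1 and 3 and of mads1_HT_W3.5 replicate 3 reach below the line.

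The genotype comparison asks what the HvMADS1 mutation does to these genes in each temperature and stage. None of the 16 differences between mads1 and WT passed in edgeR with all 24 libraries. Of all genes 2.27% were called at LT in W2.5, 2.42% at LT in W3.5, 13.3% at HT in W2.5 and 5.83% at HT in W3.5. In number, 2, 0, 0 and 2 of the 4 had an unadjusted edgeR p under 0.05. The share of all genes under that unadjusted threshold was not counted. When WT_HT_W2.5 replicate 3 was left out, 4 of the 16 passed, 1, 0, 1 and 2 in the same order, against 5.59%, 14.0%, 5.67% and 24.4% of all genes.

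At LT W2.5 HvMADS3 had 5 reads over the mads1 group and 49 over the WT group, and the groups overlapped, since WT_LT_W2.5 replicate 3 held 1 read. The log2 fold change was -3.21 (edgeR, SE 0.93, adjusted p = 0.101), and -3.15 (SE 0.90, adjusted p = 0.0443) without WT_HT_W2.5 replicate 3. DESeq2 called it with all 24 libraries (-3.33, SE 0.90, adjusted p = 0.00982). The difference rests on WT_LT_W2.5 replicate 2, without which the edgeR log2 fold change was -1.38. For HvMADS16 (means of 1.08 ± 0.155 and 2.45 ± 1.83 CPM, SD, n = 3) and HvMADS32 (84.8 ± 6.93 and 107 ± 14.7 CPM) the mads1 libraries lay below all WT ones, yet neither difference passed in edgeR (adjusted p = 0.275 and 0.820, or 0.141 and 0.0718 without WT_HT_W2.5 replicate 3). HvMADS16 did pass in DESeq2 without WT_HT_W2.5 replicate 3 (log2 fold change -1.13, adjusted p = 0.0368). In edgeR with all 24 libraries HvMADS6, HvMADS7 and HvMADS8, which are SEPALLATA-group and AGL6-group relatives, were called lower among the 9 other list genes.

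At LT W3.5 the mads1 libraries lay above all WT ones for HvMADS58 (8.25 ± 2.04 against 4.48 ± 0.478 CPM) and HvMADS32 (185 ± 17.1 against 151 ± 5.09 CPM). Neither passed in edgeR with all 24 libraries (adjusted p = 0.535 and 0.656) or without WT_HT_W2.5 replicate 3 (0.0597 and 0.112). HvMADS58 did pass in 3 other fits: with the 2 compared groups alone (log2 fold change 0.83, edgeR adjusted p = 0.0220), without WT_HT_W2.5 replicate 3 and mads1_HT_W3.5 replicate 3 (0.86, edgeR adjusted p = 0.0322), and in DESeq2 without WT_HT_W2.5 replicate 3 (0.86, adjusted p = 0.0300). HvMADS3 and HvMADS16 overlapped between the genotypes.

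At HT W3.5 HvMADS3 (4.18 ± 1.09 against 9.01 ± 0.419 CPM), HvMADS58 (3.01 ± 0.813 against 5.96 ± 0.880 CPM) and HvMADS16 (13.3 ± 4.45 against 25.4 ± 3.18 CPM) were lower in all 3 mads1 libraries than in any WT library, by 2.15, 1.98 and 1.91 times in the means. Their log2 fold changes of -1.10, -0.99 and -0.93 did not pass with all 24 libraries (edgeR adjusted p = 0.329, 0.296 and 0.129). Without WT_HT_W2.5 replicate 3 those of HvMADS58 (-1.0, SE 0.30, adjusted p = 0.0204) and HvMADS16 (-0.94, SE 0.27, adjusted p = 0.0142) passed and that of HvMADS3 did not (-1.12, adjusted p = 0.0609). In a fit to these 6 libraries alone all 3 passed, at -1.11 for HvMADS3 (edgeR adjusted p = 0.0164), -0.99 for HvMADS58 (0.0330) and -0.94 for HvMADS16 (0.0429). The share of all genes called in that fit was not counted. HvMADS32 stood at 144 ± 4.50 CPM in mads1 and 151 ± 8.40 in WT, with a log2 fold change of -0.07 (edgeR, SE 0.18, adjusted p = 0.930). The mads1 library with the most HvMADS1 reads in that group, replicate 3, was also the lowest for HvMADS3, HvMADS58 and HvMADS16. The part of that library in the result was not tested beyond leaving it out: without it and WT_HT_W2.5 replicate 3 neither HvMADS58 (-0.84, edgeR adjusted p = 0.0827) nor HvMADS16 (-0.70, adjusted p = 0.0661) passed.

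At HT W2.5 all 4 genes overlapped between genotypes. Without WT_HT_W2.5 replicate 3, which leaves 2 WT libraries, the mads1 libraries lay above both for HvMADS3, HvMADS58 and HvMADS32. HvMADS32 then passed (62.2 ± 11.4 against 45.4 CPM, log2 fold change 0.47, edgeR, SE 0.12, adjusted p = 0.0244), while HvMADS58 (1.70, adjusted p = 0.0814) and HvMADS3 (3.07, adjusted p = 0.373, on 16 reads against 1) did not.

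**Figure D3:**
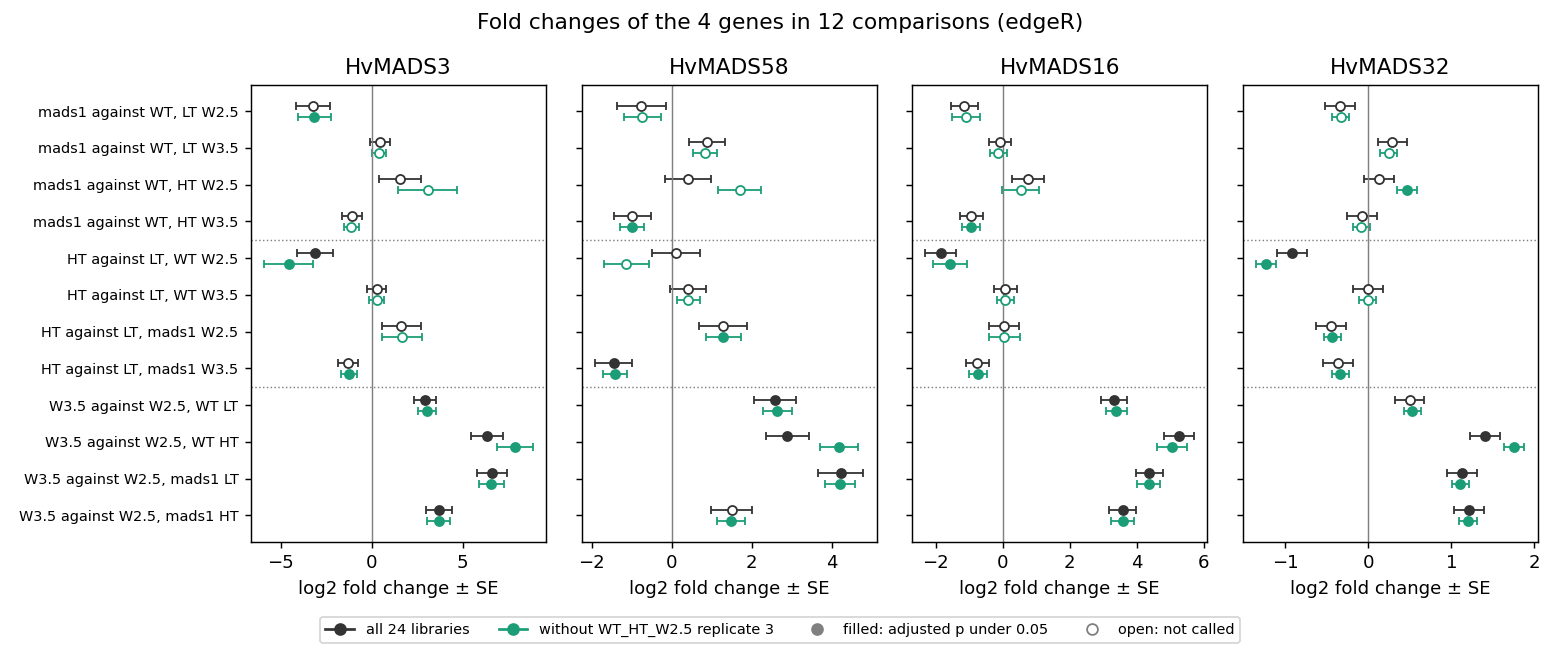
Log2 fold change with its standard error for each gene in the 4 genotype, 4 temperature and 4 stage comparisons, from edgeR with all 24 libraries (black) and without WT_HT_W2.5 replicate 3 (green); filled points had an adjusted p under 0.05, and each gene has its own axis. All stage changes lie right of 0, and leaving out 1 library moves the HvMADS58 points of WT HT W2.5 the most among the genotype and temperature comparisons of that gene.

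The temperature comparison asks what the warmer regime does within a genotype and stage. In the fit to all 24 libraries 4 of the 16 differences passed and all 4 were lower at HT: HvMADS3, HvMADS16 and HvMADS32 in WT at W2.5, and HvMADS58 in mads1 at W3.5. None passed in WT at W3.5 or in mads1 at W2.5. Of all genes 22.4% were called in WT at W2.5, 6.14% in WT at W3.5, 8.11% in mads1 at W2.5 and 27.2% in mads1 at W3.5. Those called lower at HT were 5.59%, 2.34%, 3.82% and 13.2% in the same order.

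In WT at W2.5 HvMADS32 fell from 107 ± 14.7 to 57.0 ± 20.1 CPM (SD, n = 3), with no overlap (log2 fold change -0.91, edgeR, SE 0.18, adjusted p = 0.00320). That call held when any 1 of the 6 libraries was left out. HvMADS16 fell from 2.45 ± 1.83 to 0.614 ± 0.332 CPM (-1.85, edgeR, SE 0.45, adjusted p = 0.0100), and the call was lost without WT_LT_W2.5 replicate 2 (log2 fold change -1.08, adjusted p = 0.0541). HvMADS3 fell from 1.04 ± 1.36 to 0.134 ± 0.184 CPM (-3.14, edgeR, SE 0.99, adjusted p = 0.0316) with overlapping groups, and its call was lost without WT_LT_W2.5 replicate 2 (log2 fold change -1.31, adjusted p = 0.271) or WT_HT_W2.5 replicate 1 or 2 (0.0733 and 0.0697). HvMADS58 differed by 0.11 (edgeR adjusted p = 0.905), and by -1.13 (adjusted p = 0.189) without WT_HT_W2.5 replicate 3. In that fit the other 3 passed again, where 17.0% of all genes were called and 7.71% were called lower. In a fit to these 6 libraries alone HvMADS16 and HvMADS32 did not pass (edgeR adjusted p = 0.555 for each), and HvMADS3 and HvMADS58 had too few reads to be tested. HvMADS32 on the scale of the library total was even over the 3 WT HT W2.5 libraries, at 51.8, 55.9 and 52.8 FPKM, so the 80.0 CPM of replicate 3 reflects its scaling factor. Of the 9 other list genes 6 were called lower there.

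At W3.5 in WT the HT libraries of HvMADS3 lay above the LT ones, and the temperatures overlapped for the other 3 genes. The log2 fold changes of 0.26 for HvMADS3, 0.41 for HvMADS58, 0.08 for HvMADS16 and -0.00 for HvMADS32 did not pass (edgeR adjusted p = 0.789 to 1), nor did any of the 4 without WT_HT_W2.5 replicate 3, where 25.8% of all genes were called. With these 6 libraries alone HvMADS58 passed (0.41, edgeR, SE 0.16, adjusted p = 0.0466).

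In mads1 the order of the temperatures differed between the stages for the AGAMOUS-group genes. At W2.5 all HT libraries lay above all LT ones for HvMADS3 and HvMADS58, and below them for HvMADS32. None of these passed with all 24 libraries. In the fit lacking WT_HT_W2.5 replicate 3, HvMADS58 was higher (log2 fold change 1.29, edgeR, SE 0.44, adjusted p = 0.0312) and HvMADS32 lower (-0.43, SE 0.11, adjusted p = 0.00401), where 31.0% of all genes were called. At W3.5 the HT libraries lay below all LT ones for all 4 genes, by 2.45 times in the means for HvMADS3, 2.74 for HvMADS58, 1.70 for HvMADS16 and 1.29 for HvMADS32. HvMADS58 passed with all 24 libraries (-1.45, edgeR, SE 0.47, adjusted p = 0.0258), but not when replicate 2 or 3 of either group was left out (0.0514 to 0.0983). Without WT_HT_W2.5 replicate 3 all 4 were lower, where 54.3% of all genes were called (edgeR adjusted p = 0.0167 for HvMADS3, 0.000501 for HvMADS58, 0.0267 for HvMADS16 and 0.00918 for HvMADS32). Of all genes 25.4% were called lower in that fit. The genotype and temperature comparisons share libraries, so that their values for mads1 HT W3.5 are not independent.

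Whether 2 such effects differed was tested with 6 interactions. With all 24 libraries edgeR called none of the 24 differences of effects, and DESeq2 called 4. In edgeR 13 of the 24 had an unadjusted p under 0.05, a threshold at which the share of all genes was not counted. Of all genes, 0.685% and 1.51% were called for genotype by temperature at W2.5 and W3.5, 0.00% and 1.88% for genotype by stage at LT and HT, and 0.745% and 1.50% for temperature by stage in WT and mads1. For genotype by stage at LT, none of the 4 passed in either fit, and 0.454% of all genes were called without WT_HT_W2.5 replicate 3. In the fit without WT_HT_W2.5 replicate 3, 5 passed, 3 of them for HvMADS58. The genotype effect on HvMADS58 at W3.5 was lower at HT than at LT by 1.83 in log2 units (edgeR, SE 0.42, adjusted p = 0.00595; 14.1% of all genes called). At HT its genotype effect was lower at W3.5 than at W2.5 by 2.70 (edgeR, SE 0.62, adjusted p = 0.0161; 4.80% called). In mads1 its temperature effect was lower at W3.5 than at W2.5 by 2.72 (edgeR, SE 0.53, adjusted p = 0.00214; 14.9% called). HvMADS32 had the other pair, in WT a temperature effect 1.22 higher at W3.5 than at W2.5 (edgeR, SE 0.16, adjusted p = 0.000118; 2.23% called) and at W2.5 a genotype effect 0.80 higher at HT than at LT (edgeR, SE 0.16, adjusted p = 0.0100; 1.69% called). When WT_HT_W2.5 replicate 1 was left out instead, HvMADS16 passed for genotype by temperature at W2.5 (2.45, edgeR adjusted p = 0.0498), genotype by stage at HT (-2.25, adjusted p = 0.0320) and temperature by stage in WT (2.49, adjusted p = 0.0340).

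Ordered by mean level, the 4 W3.5 groups came before the 4 W2.5 groups for every gene. mads1 LT W3.5 was first for HvMADS3, HvMADS58 and HvMADS32, and WT HT W3.5 for HvMADS16. mads1 HT W3.5 was the fourth for all 4 genes, and its libraries did not overlap those of the group above it for HvMADS3, HvMADS58 and HvMADS16, while for HvMADS32 they overlapped. Among the W2.5 groups, neighbours in the order of HvMADS3 and of HvMADS58 overlapped throughout. For HvMADS32 the order at W2.5 was WT LT, mads1 LT, mads1 HT, WT HT, and of its neighbours the last pair overlapped.

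The spread between replicates differed between groups. In WT LT W2.5 the coefficient of variation over the 3 pools was 131% for HvMADS3, 76.5% for HvMADS58, 74.5% for HvMADS16 and 13.7% for HvMADS32. Counting error alone gives 24.7%, 27.7%, 15.6% and 2.27%, and the median over all genes of at least 1 CPM in that group was 11.7%. Replicate 2 was the highest and replicate 3 the lowest for all 4 genes. HvMADS3 had 38 reads in replicate 2 and 1 in replicate 3, a ratio of 50.8 in CPM with a 95% counting interval of 8.58 to 2058. The ratio of the same libraries was 4.68 (1.83 to 14.2) for HvMADS58, 3.44 (2.16 to 5.65) for HvMADS16 and 1.26 (1.18 to 1.34) for HvMADS32. Replicate 2 was also highest for all 8 other genes of the MADS-box list apart from HvMADS1.

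To set these levels beside how advanced each pool was, each library was given a stage index from other genes. The index takes genes that changed at least 2-fold between the stages in the other genotype at the same temperature, leaves out every MADS-box list gene, and runs from 0 at the W2.5 mean to 1 at the W3.5 mean of that genotype. It is a description and not a test. In WT LT W2.5, over 96 genes, replicates 1, 2 and 3 stood at 0.143, 0.350 and 0.210, so that the pool with the highest levels of all 4 genes also had the highest index. The lowest index was that of replicate 1, while the lowest levels were those of replicate 3.

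In mads1 HT W3.5 the order of the pools was the same for the index and for HvMADS3, HvMADS58 and HvMADS16. The index was 1.06, 0.929 and 0.774 in replicates 1, 2 and 3, and HvMADS16 stood at 16.8, 14.7 and 8.28 CPM. That index is over 1693 genes. With its genes chosen and its W2.5 mean set without WT_HT_W2.5 replicate 3 it was 1.09, 0.999 and 0.900, over 237 genes and in the same order. The coefficient of variation there was 26.0%, 27.0% and 33.6% for these 3 genes and 3.13% for HvMADS32, whose order was reversed, and 12.2% for the median gene. Counting error alone gives 12.2%, 14.4% and 6.83% for these 3 genes and 2.09% for HvMADS32. In mads1 LT W3.5 the 2 measures disagreed. Replicate 1 was lowest for all 4 genes and for all 8 other list genes, yet its index of 0.843 was the highest, beside 0.768 and 0.743. Over the 8 groups, the library with the highest index was also the highest for HvMADS3 in 4 groups, for HvMADS58 in 4, for HvMADS16 in 5 and for HvMADS32 in 5, and the full order of the 3 libraries was shared in 3, 1, 2 and 2. With 3 libraries a group such matches also arise by chance. In WT HT W2.5 the matching library was replicate 3, which stood apart. With index genes chosen without it, replicate 1 had the highest index there (0.247 against 0.206) and was highest for HvMADS16 alone. The highest index then also moved in WT LT W3.5, from replicate 2 to replicate 1 (0.780 and 0.786), which was highest for HvMADS3 and HvMADS58.

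The level of the index depended on WT_HT_W2.5 replicate 3 where that library helped to choose its genes and to set its W2.5 mean. In mads1 HT W2.5 it was 0.782, 0.785 and 0.757 over 1693 genes with that library and 0.378, 0.480 and 0.357 over 237 genes without it. With that library the values 0.782 and 0.785 lay above the 0.774 of mads1 HT W3.5 replicate 3, so that version did not separate the stages there. Without it the highest W2.5 value of 0.480 lay below the lowest W3.5 value of 0.900. In both versions replicate 2 of mads1 HT W2.5 had the highest index in its group. This replicate was also the highest for HvMADS3, HvMADS58 and HvMADS32 but the lowest for HvMADS16. In WT HT W3.5 the index was 0.554, 0.590 and 0.652, and HvMADS3 varied by 4.65% there against 7.38% for the median gene. Counting error alone gives 8.01% for HvMADS3 in that group, so the 4.65% does not show how even the pools were. An index scaled to the other genotype carries any difference between the genotypes with it, so that values of different groups are not on 1 scale of age.

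**Figure D4:**
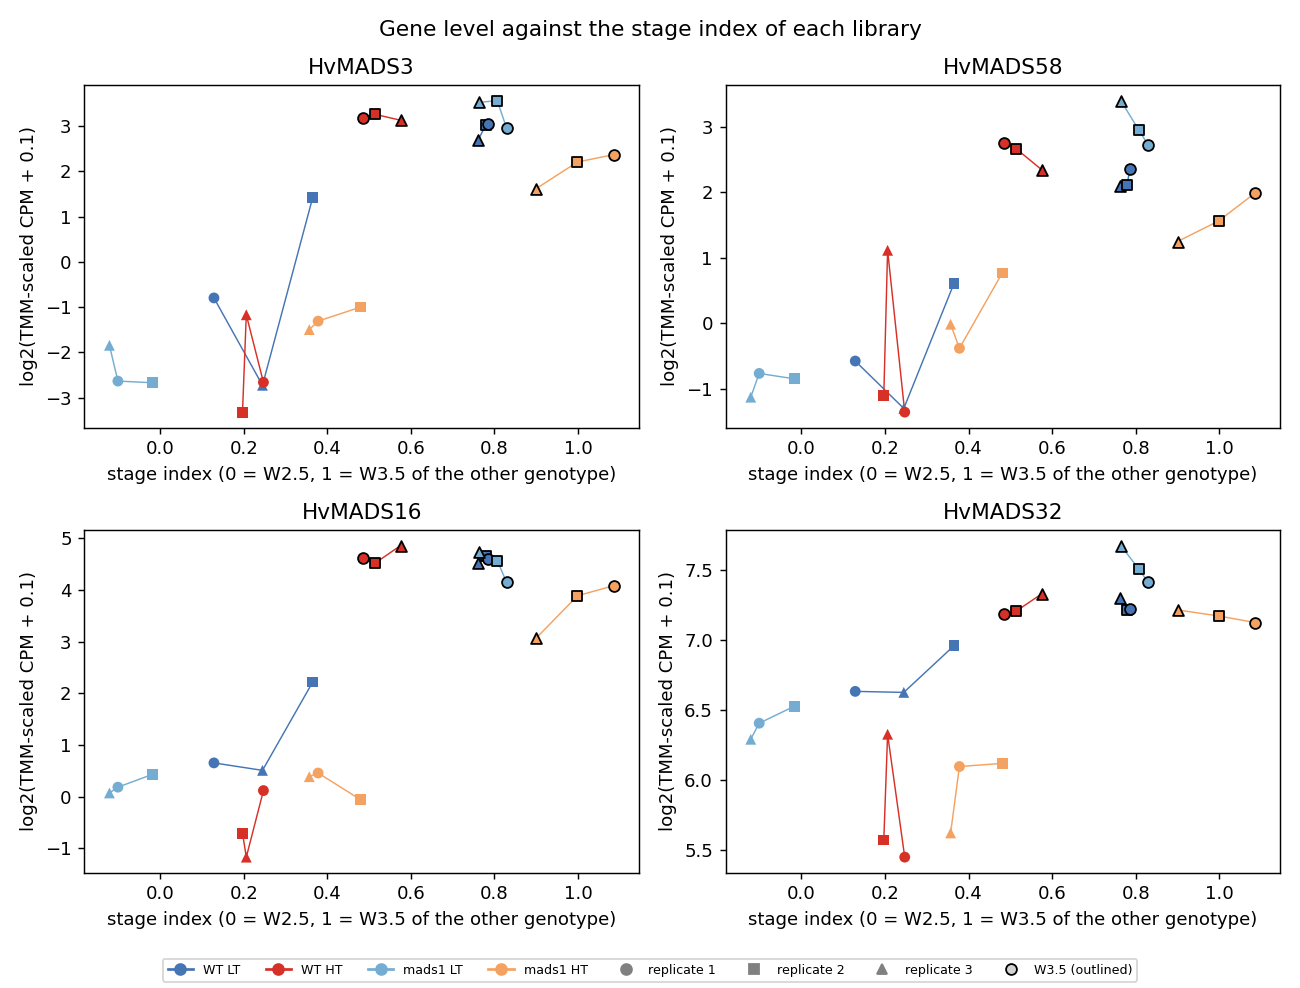
Level of each gene (log2 of TMM-scaled CPM plus 0.1) against the stage index of the library. Genes of the index were chosen, and its W2.5 means set, without WT_HT_W2.5 replicate 3. Lines join the 3 libraries of a group and outlined points are W3.5. In mads1 HT W3.5 HvMADS3, HvMADS58 and HvMADS16 rise with the index and HvMADS32 does not, and in WT LT W2.5 replicate 2 is highest on both axes.

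Across the 24 libraries the 4 genes followed each other closely, with Pearson r of log2(CPM + 1) of 0.984 between HvMADS3 and HvMADS16, 0.958 between HvMADS3 and HvMADS58, 0.913 between HvMADS58 and HvMADS16, and 0.838 to 0.888 between HvMADS32 and the others. These are descriptions, and the points share the step between the stages. Within groups, HvMADS3 and HvMADS58 had the same highest library in 5 of 8 groups, and HvMADS3 and HvMADS16 in 2 of 8. Among 16439 tested genes with a mean of at least 1 CPM, the closest to HvMADS3 and to HvMADS16 was HvMADS7 (HORVU7Hr1G054220, of the SEPALLATA group; r = 0.993 and 0.990). HvMADS16 came next after it for HvMADS3 (0.984), and HvMADS8, another SEPALLATA-group gene, for HvMADS16 (0.985). HvMADS58 was closest to HvMADS3 (0.958) and then to HORVU1Hr1G065930 (0.947), and HvMADS32 to HORVU2Hr1G077570 (0.953) and then to HvMADS5 (0.945), a SEPALLATA-group gene. With 0.1 in place of 1 in the logarithm, HvMADS6 was the closest to HvMADS32 (0.956).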

How the data were processed

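RNA of pooled spikes was made into TruSeq libraries, per the labels' protocols. HISAT2 and HTSeq were used, per the submitters' processing notes, with versions, genome build and strand setting not given. In the deposited tables the authors give whole read counts, with no normalization, and FPKM values that equal those counts over a fixed gene length and the library total (recomputed to a relative 1.14e-07), so that FPKM is no second measurement. Reads of overlapping genes or of close family copies cannot be assigned with certainty.

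The counts were fitted with edgeR 4.0.16 in R 4.3.3: filterByExpr, TMM, 8 group means, quasi-likelihood F tests for 12 pairs of groups and 6 interactions, and Benjamini-Hochberg adjustment over 18394 genes (18722 without WT_HT_W2.5 replicate 3), with calls at an adjusted p under 0.05. SE is the size of the fold change divided by the root of F. Levels are counts per TMM-scaled total (CPM). Ratios of 2 libraries or genes carry exact 95% intervals, which cover counting error only. Of the tests, the edgeR comparison of mads1 with WT at LT W2.5 alone was also run on simulated counts, with an outcome not reported here.

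The text names these 4 genes, HvMADS1, list genes a result turns on and the 2 closest genes of each. Genes, lists and tests were chosen with earlier results of these data known. Alternatives were DESeq2 1.42.0, RLE factors, no filter, robust empirical Bayes moderation, the compared groups alone, a replicate block and leaving out each library. Library totals as scaling, and the fit that also leaves out mads1_HT_W3.5 replicate 3, were added after seeing the data. No 2 libraries of the same group agreed within sampling noise, and libraries of different groups were not compared in this way.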

Additional observations from a re-analysis of the deposited data

Results flagged for a closer look

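With all 24 libraries edgeR called no interaction for these genes. Without WT_HT_W2.5 replicate 3 a difference between 2 effects passed in 5 cases. For HvMADS58 the genotype effect at HT minus that at LT was -1.83 on the log2 scale at W3.5, the genotype effect at W3.5 minus that at W2.5 was -2.70 at HT, and the temperature effect at W3.5 minus that at W2.5 was -2.72 in mads1. For HvMADS32 the genotype effect at HT minus that at LT was 0.80 at W2.5, and the temperature effect at W3.5 minus that at W2.5 was 1.22 in WT. The HvMADS58 group means in that fit are 3.01 to 8.25 CPM at W3.5 and 0.328 to 1.05 CPM at W2.5, and the W2.5 side rests on 10 to 53 reads a group.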

How the results depend on the processing

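Calls over the 4 genotype, 4 temperature, 4 stage and 6 interaction comparisons numbered 0, 4, 14 and 0 with all 24 libraries. RLE factors, no filter, robust empirical Bayes and the replicate block gave the same numbers. The replicate numbers do not pair the libraries (same-numbered libraries correlated at -0.534 to 0.491, median 0.0196, and 10 of 24 did so best with their own number), and the block changed no call. DESeq2 gave 1, 4, 15 and 4, library totals as scaling 1, 6, 16 and 3, and only the compared groups 4, 6, 12 and 5. In that last setting 65 of the 72 differences could be tested, since HvMADS3 and HvMADS58 had too few reads in some W2.5 comparisons. Shares of all genes were counted only for the edgeR fits with all 24 libraries and without WT_HT_W2.5 replicate 3. Leaving out 1 library gave 0 to 4, 3 to 9, 12 to 16 and 0 to 5. Leaving out WT_HT_W2.5 replicate 3 gave the highest of each, 4, 9, 16 and 5, and the common dispersion then fell from 0.0685 to 0.0173. Without it the block gave 5, 9, 16 and 6, DESeq2 6, 8, 16 and 11, and leaving out mads1_HT_W3.5 replicate 3 as well 3, 8, 16 and 5. For the rest, the cause was not tested.

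Of the single fold changes 9 turned their direction under some alternative, none of them called with all 24 libraries. HvMADS58 at HT against LT in WT W2.5 was -0.27 with library totals as scaling. Without WT_HT_W2.5 replicate 3 it was -1.19 with a replicate block, -1.16 with DESeq2 and -1.14 without mads1_HT_W3.5 replicate 3 as well. Over the fits that leave out 1 library it ran from -1.13 to 0.84. The other 8 turned only in such fits. For mads1 against WT these ranged from -0.22 to 0.062 for HvMADS16 at LT W3.5, from -0.081 to 1.70 for HvMADS58 at HT W2.5 and from -0.027 to 0.47 for HvMADS32 at HT W2.5. For HT against LT they ranged from -0.024 to 0.15 for HvMADS16 and from -0.050 to 0.025 for HvMADS32 in WT W3.5, and from -0.070 to 0.20 for HvMADS16 in mads1 W2.5. The temperature by stage difference ranged from -0.43 to 1.55 for HvMADS58 in WT and from -0.063 to 0.17 for HvMADS32 in mads1. Low reads limit HvMADS3 and HvMADS58 at W2.5.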
